A study of Mus musculus with 11 samples.

Results

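The state of spinal cord fibroblasts 10 days after the onset of experimental autoimmune encephalomyelitis (EAE) was described from 3 libraries of sorted cells (D10), out of 11 libraries in the series, chosen by their labels. EAE is an autoimmune disease of mice, directed at myelin, that serves as a model of multiple sclerosis. The cells were sorted for green fluorescent protein (GFP) by flow cytometry from cords of C57BL/6 Col1a1GFP mice, a reporter strain for the collagen I gene Col1a1. The D10 libraries were compared with 3 libraries of the same sort from healthy mice of that strain (control), and, where a difference in time was at issue, with 3 libraries taken 5 days after onset (D5). Each sorted library was a pool of 2 to 3 cords, named a biological replicate in the design text, so a p-value measures the spread between pools of animals and not between single mice. The labels used here give no age, and the sort selects cells by the activity of the collagen promoter whose own messenger RNA is among the results. A further 2 libraries of unsorted healthy C57BL/6 cord served only as a reference for markers of other cells.

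Fibroblasts of the central nervous system lie in the meninges and around the larger vessels, outside the neural tissue proper. They lay down collagens and other matrix proteins, and they hold a pool of growth factors and retinoid enzymes. In inflamed tissue fibroblasts are known to divide, to remodel matrix with proteases, to present antigen under interferon gamma, and to secrete chemokines that recruit leukocytes. In EAE, leukocytes enter the cord through the meninges and the perivascular spaces where these cells sit.

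Fibroblast markers were high in the sorted cells, though Col1a1 is the gene whose promoter the sort selects by. Col1a1 stood at 5167 to 8220 CPM (counts relative to the TMM-scaled library size) in control and at 11380 to 29669 CPM at D10. Summed levels of gene lists are relative to the unscaled total counts of each library. The summed level of a list of 24 fibroblast genes was 41500 to 76100 CPM at D10, against 844 and 991 CPM in whole cord. Neuronal markers summed to 57.1 to 72.0 CPM at D10 and 11500 to 13000 CPM in whole cord. Astrocyte markers were also lower, at 1350, 1340 and 1150 CPM at D10 against 8820 and 7670 CPM in whole cord. Oligodendrocyte markers summed to 257, 261 and 190 CPM at D10 against 18000 and 16000 CPM in whole cord. Markers of oligodendrocyte precursors (210, 153 and 172 CPM against 939 and 920 CPM) and Schwann cells (732, 813 and 536 CPM against 13500 and 11900 CPM) were lower too. Markers of some other cell types stood above whole cord. Pericyte and smooth muscle markers summed to 3670, 2440 and 2720 CPM at D10 and to 203 and 325 CPM in whole cord. Macrophage and microglia markers summed to 612, 323 and 615 CPM against 307 and 272 CPM. Endothelial markers summed to 485, 532 and 523 CPM against 304 and 460 CPM. Such transcripts are given beside the results they move with.

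Library totals were 7943615 to 10300867 counts in control and 8970221 to 10491064 at D10. The 3 D10 libraries were not alike. On the first principal component, which held 48.8% of the variance, D10 replicates 1 and 2 lay at 12 and 3.39, between the controls (-81.6 to -78.0) and the D5 libraries (51.9 to 59.2), whereas D10 replicate 3 lay at 53.8. As a distance between libraries, the root mean square of the log2 CPM difference over all tested genes was used. D10 replicate 3 lay 0.609 to 0.673 from the D5 libraries and 0.775 to 0.790 from the other D10 libraries, while D10 replicates 1 and 2 lay 0.760 from each other and 0.790 to 0.889 from D5. It was also the D10 library farthest from control, at 1.23 to 1.25. Genes of the immediate-early and heat shock response, which dissociation of a tissue can set off, stood lower in D10 replicate 3 (summed level 7970 CPM) than in replicates 1 and 2 (20100 and 23800 CPM). In control they ranged from 13700 to 25800 CPM, and 1 of the 28 genes was called at D10. At D5 they were at 14900, 8010 and 8430 CPM, so the low level of D10 replicate 3 was shared by D5 replicates 2 and 3. Counts of called list members are therefore mostly given with and without D10 replicate 3.

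**Figure D1:**
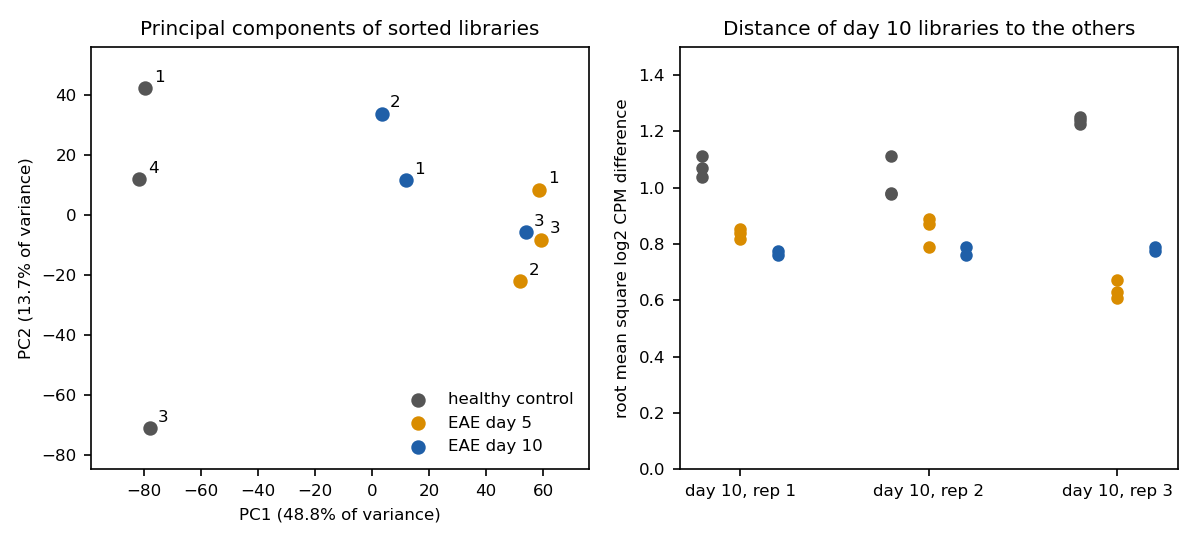
The left panel plots the first and second principal components of log2 CPM for the 9 sorted libraries, labelled by replicate number, and the right panel the root mean square log2 difference of each D10 library from every other sorted library, coloured by the group of the other library. D10 replicate 3 lies at 53.8 on the first axis, among the D5 libraries, and is 0.609 to 0.673 from them.

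At D10, 1339 genes were higher and 797 lower than in control, of 15972 genes entered in the quasi-likelihood test of edgeR (called at a Benjamini-Hochberg adjusted p under 0.05). These are 13.4% of tested genes in all, 8.38% higher and 4.99% lower. By a fold of at least 2, 827 genes rose (5.18%) and 453 fell (2.84%). The median log2 fold change over all genes was 0.01, with quartiles of -0.36 and 0.40. All D10 libraries lay above all controls for 17.0% of genes and below them for 14.1%. Without D10 replicate 3 the calls were 680 higher and 365 lower, and 1020 of those 1045 genes were among the 2136. Without D10 replicates 1 or 2, 1780 and 2031 genes were called, and without a control library 1425 to 1658, and the largest loss came with the removal of D10 replicate 3. Without control replicate 4 the lower genes numbered 522.

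**Figure D2:**
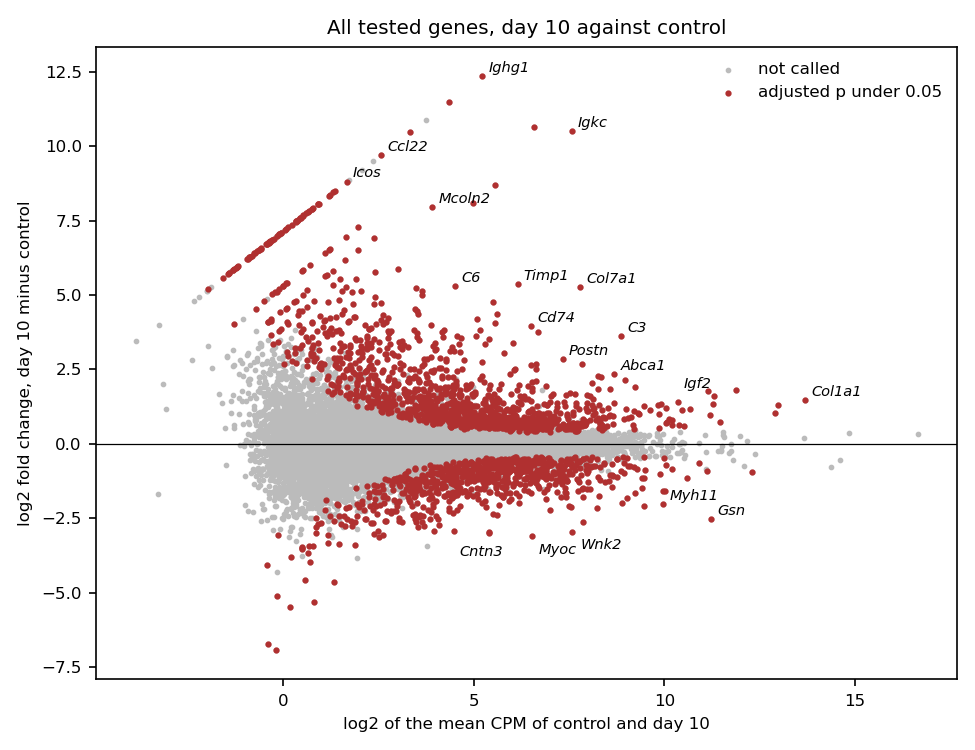
Each point is 1 of the 15972 tested genes, with the log2 of its mean CPM over control and D10 on the x axis and its log2 fold change, D10 minus control, on the y axis; red points passed an adjusted p of 0.05. The diagonal streak at upper left holds genes without a count in control, whose fitted fold depends on the prior count.

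**Figure D3:**
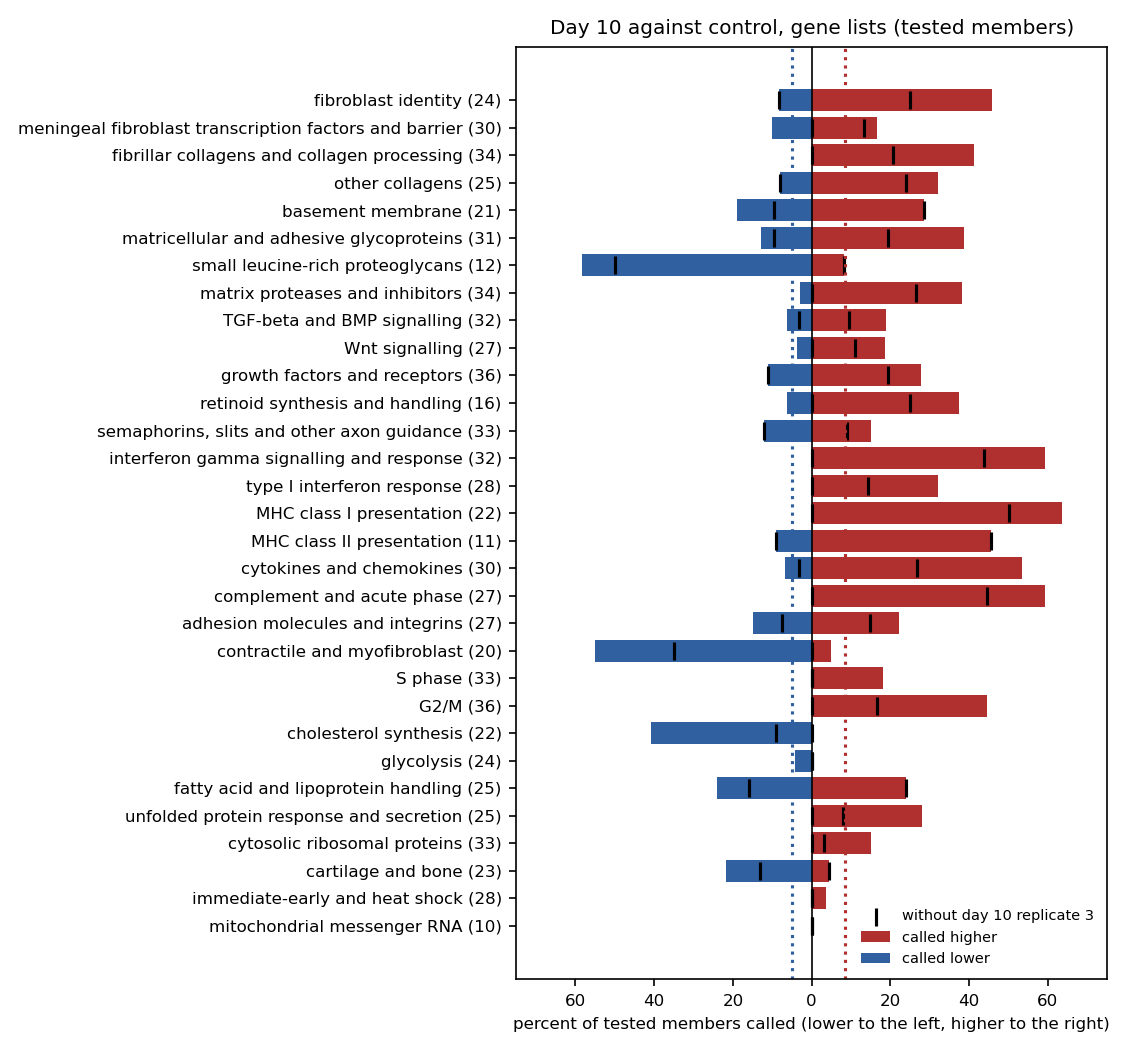
Bars give the percent of tested members (number in brackets) of each gene list other than the markers of other cell types called higher (red, right) or lower (blue, left) at D10, black ticks the same without D10 replicate 3, and dotted lines the background of 8.38% and 4.99% over all genes. Among the lists drawn, the class I, interferon gamma, complement and chemokine lists reach farthest to the right, and the small leucine-rich proteoglycan and contractile lists farthest to the left.

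Genes of collagen I and III were higher at D10. Col1a1 (ENSMUSG00000001506), the main chain of collagen I, was at 5167, 7906 and 8220 CPM in control and 17772, 11380 and 29669 CPM at D10. The log2 fold change was 1.47 ± 0.30 (standard error, adjusted p = 0.00806, 3 libraries a group). The groups did not overlap, and replicate 2 was the lowest D10 library and replicate 3 the highest. Col3a1 (ENSMUSG00000026043), which forms mixed fibrils with collagen I, rose in the same order of libraries, from 3712, 5880 and 4502 to 11757, 6613 and 16480 CPM (1.31 ± 0.29, adjusted p = 0.0109). The partner chain Col1a2 rose by 1.04 ± 0.27 (adjusted p = 0.0238), a call lost without D10 replicate 3 (0.0878), control replicate 1 (0.0896) or control replicate 4 (0.0614). In the list of fibrillar collagens and collagen processing, 14 of 34 tested genes rose and 0 fell (median log2 0.51 against 0.01 over all genes). The count was 7 without D10 replicate 3, 7 without control replicate 1 and 8 without control replicate 4. The risers included Col5a1, a chain that sets fibril width, and several enzymes that mature collagen. Loxl1 (1.84 ± 0.28, adjusted p = 0.0017) and Lox (1.64 ± 0.32, adjusted p = 0.00598) oxidise lysines for cross-links, and Bmp1 (1.64 ± 0.27, adjusted p = 0.00273) cuts the C-terminal propeptide.

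The collagen with the steepest rise was Col7a1, which in skin forms the fibrils that anchor the epidermis. It went from 7.96, 10.6 and 14.9 CPM in control to 515, 114 and 670 CPM at D10 (5.27 ± 0.61, adjusted p = 0.000381). All D10 libraries were far above control, and replicate 2 was again the lowest. Col8a1, a short-chain collagen of vessel walls, rose from 99.4, 105 and 137 to 482, 341 and 784 CPM (2.23 ± 0.28, adjusted p = 0.000591), while its partner chain Col8a2 fell by 1.32 on the log2 scale (adjusted p = 0.00281). Of 25 other collagens 8 rose and 2 fell, the other lower gene being Col9a2 of cartilage, and 6 rose and 2 fell without D10 replicate 3. Col9a2 was at -2.21 ± 0.45 (adjusted p = 0.00703), and at -2.84 without D10 replicate 2.

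Basement membrane genes moved in opposite directions, 6 of 21 up and 4 down (6 and 2 without D10 replicate 3, median -0.08). The collagen IV chains Col4a1 and Col4a2, the network formers of every basement membrane, rose by 1.80 ± 0.30 (adjusted p = 0.00273) and 1.78 ± 0.33 (adjusted p = 0.00461). Col4a1 reached 6839, 2949 and 7646 CPM from 1302, 2010 and 1705 CPM. The nidogen Nid2, the proteoglycan Agrn, the laminin chain Lama4 and Col4a5 were the other risers. The 4 that fell were all laminin chains, Lama5, Lamc3, Lama2 and Lamb2, with log2 values of -1.32, -0.97, -0.93 and -0.70. Lama5 was not called without D10 replicate 2 or 3 or any control library (0.0514 to 0.139), and Lamb2 not without D10 replicate 3 (0.053).

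Matricellular proteins, which modulate how cells read the matrix, were led by periostin. Postn (ENSMUSG00000027750) was at 36.0, 31.6 and 50.3 CPM in control and 360, 135 and 354 CPM at D10 (2.85 ± 0.32, adjusted p = 0.000345). Every D10 library was above every control, with replicate 2 the lowest. The secreted glycoprotein Cthrc1 rose from 4.04, 9.81 and 5.94 to 40.3, 31.9 and 68.3 CPM (2.81 ± 0.38, adjusted p = 0.00089). Fbln1, a fibulin of elastic fibres, rose from 219, 206 and 333 to 1082, 735 and 1007 CPM (1.90 ± 0.20, adjusted p = 0.000286). In this list 12 of 31 genes rose and 4 fell (median 0.29), with 6 and 3 without D10 replicate 3 and 7 higher without control replicate 1. The 4 lower genes were Nov, Tgfbi, Tnxb and Thbs1, of which Thbs1 was not called without D10 replicate 1 or 3 or control replicate 1 or 4 (0.0539 to 0.0732). Fibronectin (Fn1) was modestly higher, at 982, 719 and 674 CPM in control and 1161, 1292 and 1804 CPM at D10 (0.84 ± 0.19, adjusted p = 0.012). That call was lost without control replicate 4 (0.0582).

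Small leucine-rich proteoglycans, which bind collagen and set fibril spacing, went the other way. Of 12 tested members 7 fell and 1 rose (median -1.01), and 6 and 1 without D10 replicate 3. Podn was at 225, 249 and 251 CPM in control and 68.6, 91.2 and 48.9 CPM at D10 (-1.79 ± 0.21, adjusted p = 0.000436). Aspn fell from 19.4, 28.0 and 20.8 to 6.91, 3.08 and 4.58 CPM (-2.23 ± 0.40, adjusted p = 0.00396). Decorin (Dcn) fell by 0.95 ± 0.19 on the log2 scale (adjusted p = 0.00731), and Fmod, Prelp, Ecm2 and Ogn fell with it, though Ogn was not called without any 1 of D10 replicates 1 and 3 and the controls (0.0559 to 0.111). Biglycan (Bgn) was the member that rose, from 785, 865 and 990 to 2153, 1204 and 2437 CPM (1.13 ± 0.23, adjusted p = 0.00657).

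Of 34 matrix proteases and their inhibitors 13 rose and 1 fell (median 0.74, the same with genes absent from control set at their bound). Without D10 replicate 3, 9 rose and 0 fell, and the single fall, of the inhibitor Timp3, was not called without D10 replicate 2, control replicate 3 or control replicate 4 either. Adam12, a membrane disintegrin and metalloprotease, rose from 23.5, 23.2 and 42.4 to 152, 117 and 238 CPM (2.50 ± 0.29, adjusted p = 0.000388). Mmp14, the membrane-bound collagenase, rose by 1.19, and Ctsk, a collagen-degrading cathepsin, by 1.04 on the log2 scale. Timp1, an inhibitor of metalloproteases, was at 3.80, 1.14 and 4.98 CPM in control and 23.5, 95.6 and 296 CPM at D10 (5.38 ± 0.80, adjusted p = 0.00154). It spread more than 10-fold among the D10 libraries, its value was 4.15 without D10 replicate 3, and it was not called with limma voom (0.0631). Mmp3 overlapped with control, since D10 replicate 1 was at 0.669 CPM against 0.735 CPM in control replicate 1. The other values of Mmp3 were 52.8 and 135 CPM at D10 and 0 in control replicates 3 and 4 (8.10 ± 1.54, adjusted p = 0.00511). Its value was 6.86 without D10 replicate 3 and 7.47 without control replicate 4, it was at least 396-fold higher without control replicate 1, which held all of its control counts, and it was not called with limma voom (0.533).

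Of 24 general markers of fibroblasts 11 were higher and 2 lower (median 0.43), against 6 and 2 without D10 replicate 3 and 7 higher without control replicate 1 or 3. Pdgfra, a receptor for platelet-derived growth factor that fibroblasts carry, was at 1164, 1262 and 1252 CPM in control and 1275, 1064 and 1074 CPM at D10 and overlapped between groups (-0.11 ± 0.13, adjusted p = 0.643). The actin-severing protein gelsolin (Gsn) fell from 4472, 4071 and 3731 to 687, 964 and 472 CPM (-2.53 ± 0.29, adjusted p = 0.000357). All D10 libraries lay far below control, and replicate 3 was the lowest. The transcription factors and barrier genes of meningeal fibroblasts were higher in 5 and lower in 3 of 30 cases (median -0.08). Without D10 replicate 3, 4 were higher and 0 lower, and 1 was lower without D10 replicate 2 or control replicate 4.

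The 8 largest falls among genes of at least 10 CPM included a kinase, adhesion molecules and a receptor. Wnk2, a kinase that regulates chloride transport, fell from 232, 439 and 352 to 31.6, 77.1 and 21.3 CPM (-2.97 ± 0.45, adjusted p = 0.0017). Cntn3, a neural adhesion molecule of the contactin family, fell from 67.6, 86.9 and 68.8 to 4.24, 18.7 and 4.58 CPM (-3.00 ± 0.45, adjusted p = 0.00151). The glutamate receptor subunit Gria1 fell from 50.6, 79.4 and 94.3 to 5.80, 18.9 and 3.53 CPM (-2.97 ± 0.53, adjusted p = 0.00374). In all of these replicate 2 was the D10 library nearest to control, and without it the values were -3.69, -4.07 and -4.0. Frem2, a membrane protein of epithelial basement membranes, fell by 2.91 ± 0.30 (adjusted p = 0.000244) and the collectin Colec11 by 3.07 ± 0.57 (adjusted p = 0.00457). Myoc, which encodes myocilin, went from 155, 153 and 190 to 7.69, 44.5 and 5.99 CPM (-3.08 ± 0.75, adjusted p = 0.0179). Its call was lost without D10 replicate 1 (0.0596), D10 replicate 3 (0.0575) or control replicate 4 (0.0539), and without D10 replicate 2 the value was -4.60. The cartilage protein Cilp (-2.93 ± 0.77, adjusted p = 0.0247) lost its call without D10 replicate 1, 2 or 3 or control replicate 3 or 4 (0.0521 to 0.0785).

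Igf2 (ENSMUSG00000048583), a fetal growth factor that the adult meninges go on making, was at 1192, 1375 and 1697 CPM in control and 4548, 2593 and 3542 CPM at D10 (1.32 ± 0.20, adjusted p = 0.00156). All D10 libraries were above all controls, with replicate 1 the highest. The binding proteins of insulin-like growth factors were raised in 3 cases (Igfbp4, Igfbp5 and Igfbp7) and lowered in 1 (Igfbp6), and the receptor Igf1r was lower (log2 -0.76). Igfbp5 was at 1428, 1012 and 1306 CPM in control and 3356, 2629 and 5339 CPM at D10 (1.60 ± 0.23, adjusted p = 0.00137). Hgf, the scatter factor, rose by 2.08 ± 0.46 (adjusted p = 0.0115) at a low level of 6.69 to 10.2 CPM. Of 36 growth factors and receptors 10 rose and 4 fell (median 0.17), 7 and 4 without D10 replicate 3. Fgf7, a growth factor for epithelia, was called (2.21 ± 0.63, adjusted p = 0.0358), but the call was lost without D10 replicate 3 (0.247) or any control library (0.0787 to 0.105).

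Of 16 retinoid genes 6 were higher and 1 lower (4 and 0 without D10 replicate 3, median 0.33). Rdh10 and Aldh1a2 catalyse the successive steps from retinol to retinoic acid. Rdh10 was at 44.8, 24.1 and 37.7 CPM in control and 91.6, 158 and 199 CPM at D10 (2.07 ± 0.29, adjusted p = 0.00111). Aldh1a2 was at 155, 161 and 175 CPM and 426, 690 and 667 CPM (1.86 ± 0.20, adjusted p = 0.000284). Cyp26b1, which degrades retinoic acid, rose by 1.45 on the log2 scale. The lower member was Rarres2, the chemerin gene, not called without D10 replicate 3 (0.0612) or control replicate 4 (0.0568).

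TGF-beta and BMP genes were called in 6 cases higher and 2 lower of 32 (3 and 1 without D10 replicate 3, 1 lower without control replicate 4, median 0.19). Fstl1, a secreted glycoprotein that binds BMPs, went from 580, 738 and 616 to 1147, 1153 and 2115 CPM (1.19 ± 0.23, adjusted p = 0.00549), and the ligand Bmp5 fell by 1.19 on the log2 scale. Of 27 Wnt genes 5 rose and 1 fell (median -0.02), and 3 rose without D10 replicate 1, 2 or 3, 2 without control replicate 3, with 0 lower without D10 replicate 3. The secreted Dickkopf relative Dkk3 rose from 70.1, 47.2 and 48.0 to 107, 113 and 136 CPM (1.11 ± 0.18, adjusted p = 0.00257). Of 33 axon guidance genes 5 rose and 4 fell (3 and 4 without D10 replicate 3, median 0.11). Sema7a, a membrane-anchored semaphorin, rose from 7.35, 8.06 and 9.67 to 15.2, 20.9 and 44.7 CPM (1.68 ± 0.34, adjusted p = 0.00659).

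The GAS motif is known from promoters that answer to interferon gamma and the ISRE motif from those that answer to type I interferons. Promoter windows from RefSeq (GRCm38.p6, 250 bases before to 50 after a gene's start) were searched on both strands for TTCNNNGAA (GAS) and GAAANNGAAA (ISRE), whose matches may overlap. GAS was found in 8.30% of 32851 windows (9.55% of 27025 genes) and ISRE in 3.44% (3.99% of genes). Of the interferon gamma list 21 tested genes had a window, with GAS in 9 (42.9%) and ISRE in 11 (52.4%). Of the type I list 21 had a window, with GAS in 6 (28.6%) and ISRE in 12 (57.1%), and of the class I list 18 had a window, with GAS in 2 (11.1%, near the share of all genes) and ISRE in 5 (27.8%). Of the class II list 8 had a window, with GAS in 1 and ISRE in 1. These are matches of letters and not measured sites. Windows of 3 called genes are printed on the strand of the gene, with the motif in capitals. They show both motifs in genes whose levels follow. The Cxcl10 window (chr5:92348840-92349139, minus strand) holds an ISRE, the Irf8 window (chr8:120736108-120736407, plus strand) holds 2 GAS, and the Psmb8 window (chr17:34197945-34198244, plus strand) holds 1 GAS.
Cxcl10: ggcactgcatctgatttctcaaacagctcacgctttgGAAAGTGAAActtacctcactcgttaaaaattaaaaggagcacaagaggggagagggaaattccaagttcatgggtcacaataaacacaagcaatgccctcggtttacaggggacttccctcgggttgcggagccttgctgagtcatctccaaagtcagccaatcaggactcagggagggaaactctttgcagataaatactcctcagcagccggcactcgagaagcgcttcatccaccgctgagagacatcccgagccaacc
Irf8: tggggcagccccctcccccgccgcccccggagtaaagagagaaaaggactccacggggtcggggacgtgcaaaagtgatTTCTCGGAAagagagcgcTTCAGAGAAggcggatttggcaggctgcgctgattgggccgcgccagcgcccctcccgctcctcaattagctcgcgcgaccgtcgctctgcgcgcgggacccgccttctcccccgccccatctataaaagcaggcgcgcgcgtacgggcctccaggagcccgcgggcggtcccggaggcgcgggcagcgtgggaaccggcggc
Psmb8: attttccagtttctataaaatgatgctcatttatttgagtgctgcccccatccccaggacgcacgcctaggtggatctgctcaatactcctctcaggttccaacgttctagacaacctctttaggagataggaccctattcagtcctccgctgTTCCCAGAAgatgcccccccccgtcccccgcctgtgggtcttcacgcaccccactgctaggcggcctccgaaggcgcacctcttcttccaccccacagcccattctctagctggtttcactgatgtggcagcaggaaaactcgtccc

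Of 32 genes of interferon gamma signalling and response 19 rose and 0 fell (median 1.31, also with its member absent from control at its bound), and 14 rose without D10 replicate 3. The mean of the list lay 0.64, 1.35 and 1.70 above control on the log2 scale in D10 replicates 1, 2 and 3, so replicate 3 stood highest and replicate 1 lowest. Irf8, a transcription factor induced by interferon gamma and also expressed by myeloid cells, rose from 2.45, 1.03 and 4.88 to 25.4, 27.7 and 48.5 CPM (3.58 ± 0.41, adjusted p = 0.000357, or 4.30 without control replicate 4). Cxcl10, a chemokine for activated T cells, rose from 4.53, 3.00 and 6.22 to 22.7, 38.3 and 59.0 CPM (3.12 ± 0.36, adjusted p = 0.000357). Cxcl9, a ligand of the same receptor, was at 12.9, 70.6 and 115 CPM from 4.65, 2.38 and 6.89 CPM (3.82 ± 0.63, adjusted p = 0.00253). Its value was 3.15 without D10 replicate 3, and it was not called with limma voom (0.0551). The guanylate-binding proteins, GTPases that attack intracellular pathogens, made up 8 of the 19 (Gbp2 to Gbp9), though reads of these near-identical genes may have been shared. Of these, Gbp3 and Gbp7 were not called without D10 replicate 3 (0.0539 and 0.0921) or control replicate 4 (0.0548 and 0.0625), and Gbp7 not without control replicate 1 (0.0773). Of 28 type I interferon genes 9 rose and 0 fell (median 0.65), 4 without D10 replicate 3. The RNA sensors Oas1a (3.87 ± 0.48, adjusted p = 0.00059) and Oas2 (3.06 ± 0.37, adjusted p = 0.000487) rose most and reached 7.70 to 15.6 CPM.

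Class I antigen presentation rose in 14 of 22 genes and fell in 0 (median 0.71), and in 11 without D10 replicate 3. Psmb8, a subunit of the immunoproteasome, went from 14.0, 11.7 and 11.3 to 29.3, 44.3 and 60.5 CPM (1.86 ± 0.24, adjusted p = 0.000622). The light chain B2m, at 124 to 147 CPM in control, reached 330, 285 and 477 CPM (1.39 ± 0.19, adjusted p = 0.00111). Nlrc5, the transactivator of class I genes, rose from 5.14, 2.17 and 6.80 to 22.3, 37.5 and 42.1 CPM (2.85 ± 0.38, adjusted p = 0.000842). The non-classical H2-Q7 rose by 3.77 ± 0.39 (adjusted p = 0.000244, or 4.48 without control replicate 4) and may share reads with H2-Q6. In class II presentation 5 of 11 genes rose and 1 fell, with and without D10 replicate 3 (median 2.33). Cd74, the invariant chain, was at 11.3, 16.9 and 4.79 CPM in control and 157, 127 and 225 CPM at D10 (3.95 ± 0.40, adjusted p = 0.000244). H2-Ab1, a class II beta chain, rose from 2.33, 6.71 and 1.34 to 55.2, 54.3 and 83.6 CPM (4.21 ± 0.45, adjusted p = 0.000288, or 5.15 without control replicate 3).

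Leukocyte transcripts moved together with these groups. Of 13 pan-leukocyte markers 12 rose and 0 fell (9 without D10 replicate 3), and their summed level went from 15.3 to 51.1 CPM in control to 176, 172 and 268 CPM at D10. Ptprc, the common leukocyte phosphatase, was at 6.61, 1.45 and 1.82 CPM in control and 24.9, 24.6 and 37.4 CPM at D10 (3.17 ± 0.46, adjusted p = 0.00137, or 4.13 without control replicate 1). Of 17 T and NK cell markers 14 rose (12 without D10 replicate 3). Their sum went from 2.16 to 5.66 CPM to 50.1, 58.0 and 81.0 CPM, and Trac, Trbc1, Ifng, Il17a, Gzmb, Gzma and Icos had 0 counts in control. Of 21 macrophage and microglia markers 12 rose (9 without D10 replicate 3), with sums of 195 to 203 CPM in control and 612, 323 and 615 CPM at D10, and Trem2 had 0 counts in control. The part of leukocytes in the interferon, presentation, chemokine and complement results was not tested. In bulk libraries more cells of a type and more RNA per cell cannot be told apart.

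Icos, a costimulatory receptor of T cells, had 0 counts in control and 176 over the D10 libraries, at least 57.2-fold higher with 3 counts over the control group as the floor. Cd4 rose from 0.490, 0.413 and 0.862 to 10.6, 6.45 and 9.52 CPM (3.86 ± 0.44, adjusted p = 0.000357). C1qa, a complement subunit made by microglia and macrophages, rose from 0.857, 1.86 and 0 to 23.9, 12.3 and 27.3 CPM (4.54 ± 0.70, adjusted p = 0.00189). It was at 5.71 without control replicate 3 and 3.92 without control replicate 4. Of 11 neutrophil and monocyte markers 3 rose (2 without D10 replicate 3), led by Plac8 (5.01 ± 0.56, adjusted p = 0.000333, or 6.82 without control replicate 1).

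Among called genes of at least 10 CPM at D10 whose groups did not overlap, immunoglobulin transcripts held 6 of the 8 largest rises. Ighg1, a heavy chain constant gene, had 0 counts in every control library and 76.6, 60.7 and 86.4 CPM at D10, at least 667-fold higher (adjusted p = 9.93e-06). Igj, the joining chain of secreted antibody, also had 0 counts in control and stood at 78.8, 27.4 and 15 CPM, at least 364-fold higher (adjusted p = 0.000871). The light chain constant gene Igkc was at 763, 176 and 195 CPM, against 0, 0.516 and 0.191 CPM in control (10.50 ± 0.83, adjusted p = 4.15e-05). Replicate 1 was the highest for Igj and Igkc, while Ighg2c ran from 1.83 CPM in replicate 2 to 497 CPM in replicate 1. Ighg2c had 3 counts in control and a ratio of 1670.0 (95% counting interval 570.0 to 8080.0). Without D10 replicate 1 its ratio was 323 (interval 110.0 to 1570.0), the log2 value of Igkc was 9.45, and the bound of Igj was at least 198-fold. The variable segment Ighv1-81, with 0 counts in control, was at least 176-fold higher, or at least 33.5-fold without D10 replicate 1. Where leaving out a control replicate left 1 or 2 control counts, intervals were wide: the ratio of Igkc was 3280.0 without control replicate 3 (interval 908 to 27100.0), that of Ighg2c 3160.0 without control replicate 4 (interval 566 to 125000.0) and that of Ighg2b 1720.0 without control replicate 1 (interval 309 to 68000.0), against 401 with all libraries. With limma voom the calls of Igj (0.0532), Igkc (0.0784), Ighg2c (0.628), Ighg2b (0.42) and Ighv1-81 (0.177) were lost, while Ighg1 kept its call, and Ighv1-81 was also lost without control replicate 4 (0.0533). Reads of immunoglobulin genes may be shared between near-identical copies. Of 6 tested markers of B and plasma cells 3 rose and 0 fell, 2 without D10 replicate 1 or 3 and 1 without control replicate 1 or 4, and their summed level was 54.8 to 73.8 CPM in control and 199, 122 and 158 CPM at D10. The 3 were Igj, already given above, Ighm and Sdc1. Sdc1 was the most abundant tested marker and rose by 0.81 on the log2 scale. The part of plasma cells in the immunoglobulin and marker values was not tested. Pax5 had 0 counts in control and D10, and Ms4a1, Blk and Iglc2 had too few counts to be tested. The remaining genes of largest rise were the chemokine Ccl22 and the channel Mcoln2. Ccl22 had 0 counts in control and 1.67, 11.2 and 22.4 CPM at D10, at least 105-fold higher (at least 61.9-fold without D10 replicate 3), and was not called with limma voom (0.0714). Mcoln2 had 3 counts in control, all in control replicate 1, and 20.1, 28.4 and 41.1 CPM at D10, a ratio of 268 (95% counting interval 91.4 to 1300.0). Without that control library it was at least 192-fold higher, and without control replicate 4 the ratio was 169 (interval 57.7 to 823).

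Cytokine and chemokine genes rose in 16 of 30 cases and fell in 2 (median 2.28). The list was sensitive to single libraries, with 8 higher and 1 lower without D10 replicate 3, 10 higher without control replicate 1 and 9 without control replicate 3. Ccl2, which recruits monocytes, rose from 26.8, 18.3 and 29.9 to 63.5, 100 and 54.2 CPM (1.54 ± 0.33, adjusted p = 0.00901). The growth factor of macrophages, Csf1, rose by 0.81 on the log2 scale. Il1b had 1 count in control and 0.669, 7.89 and 14.7 CPM at D10, a ratio of 208 with a 95% counting interval of 36.9 to 8240.0. The ratio was 125 without D10 replicate 3 (interval 21.8 to 4980.0), and without control replicate 1 it was at least 49.5-fold higher. It was not called with limma voom (0.137). Il11 overlapped with control, at 1.12, 13.5 and 51.6 CPM against 0.310 to 1.47 CPM (4.35 ± 1.01, adjusted p = 0.0146). Its call was lost without D10 replicate 3 (0.0827) or control replicate 3 (0.0513) or 4 (0.0515) and with limma voom (0.306). The 2 genes that fell were the eosinophil chemokine Ccl11 and the alarmin Il33, at -1.10 and -0.93 on the log2 scale, and the Ccl11 call was the one lost without D10 replicate 3.

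Complement and acute phase genes rose in 16 of 27 cases and fell in 0 (median 1.41), with 12 higher without D10 replicate 3. C3, the central component, was at 80.3, 53.6 and 77.9 CPM in control and 828, 654 and 1108 CPM at D10 (3.61 ± 0.23, adjusted p = 9.93e-06). C4b of the classical pathway went from 119, 86.0 and 105 to 456, 555 and 503 CPM (2.29 ± 0.15, adjusted p = 9.93e-06), with a spread among D10 libraries far below the difference. C6, which enters the membrane attack complex, rose from 1.84, 0.310 and 1.24 to 48.4, 26.5 and 58.1 CPM (5.31 ± 0.43, adjusted p = 4.32e-05). The proteases C1ra and C1s rose as well. Of these 16, C1qa and C1qb also belong to the macrophage list. The acute phase protein Saa3 was at 7.25, 8.76 and 57.1 CPM at D10 and 0, 1.96 and 0 CPM in control (5.15 ± 1.05, adjusted p = 0.00731). Its value was 3.55 without D10 replicate 3 and 4.52 without control replicate 4, it had 0 counts in control without control replicate 3, and it was not called with limma voom (0.207).

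Adhesion genes rose in 6 and fell in 4 of 27 cases (4 and 2 without D10 replicate 3, and 1 lower without D10 replicate 2 or control replicate 3 or 4). Itgb8, an integrin chain that releases active TGF-beta, was at 34.9, 38.4 and 32.2 CPM in control and 118, 134 and 151 CPM at D10 (1.94 ± 0.15, adjusted p = 3.64e-05). Cd44, the hyaluronan receptor, rose from 40.7, 19.4 and 29.2 to 73.5, 93.3 and 120 CPM (1.69 ± 0.26, adjusted p = 0.00184).

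**Figure D4:**
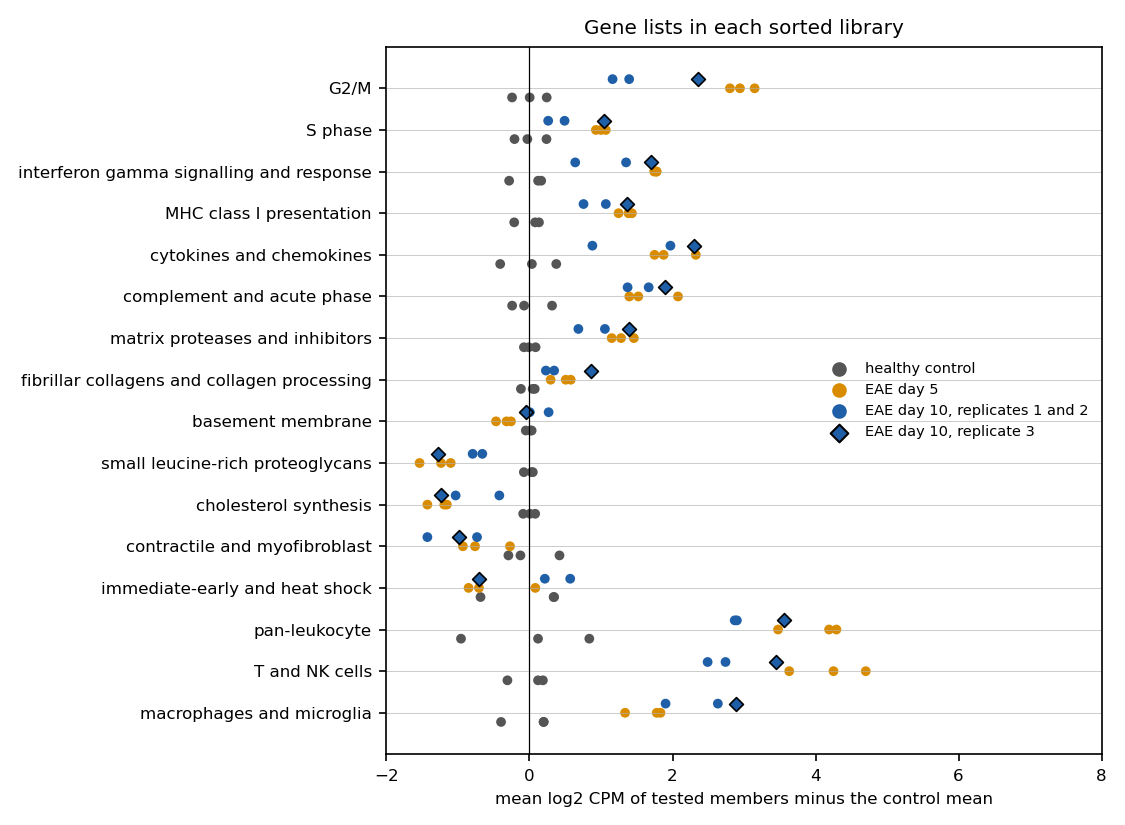
For 16 gene lists, each point gives 1 sorted library as the mean log2 CPM of the tested members minus the control mean, and diamonds mark D10 replicate 3. D10 replicate 3 lies nearer to D5 than D10 replicates 1 and 2 in the G2/M and S phase lists, and below them in the immediate-early and heat shock list.

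Cell division genes were higher at D10, to an extent that depended on replicate 3. Mki67, a marker of cycling cells, was at 47.0, 17.8 and 28.9 CPM in control and 79.4, 83.3 and 162 CPM at D10 (1.80 ± 0.33, adjusted p = 0.00408). Of 36 G2/M genes 16 rose and 0 fell (median 1.72, also with Ccnb1 at its bound), against 6 without D10 replicate 3 (median 1.25). The mean of the list was 1.39 and 1.16 above control in D10 replicates 1 and 2 and 2.36 in replicate 3 on the log2 scale. Cenpf, a kinetochore protein, rose from 6.49, 7.13 and 4.12 to 22.1, 17.4 and 30.9 CPM (1.99 ± 0.26, adjusted p = 0.000796). Cdk1, the kinase that drives mitosis, was at 3.57, 3.85 and 10.9 CPM at D10 and 0.207 to 0.957 CPM in control (3.32 ± 0.61, adjusted p = 0.00433, or 2.60 without D10 replicate 3). Of 33 S phase genes 6 rose and 0 fell (median 0.51), 0 without D10 replicate 3 or control replicate 4 and 1 without control replicate 3. Leukocyte markers moved in the same direction, and the part of dividing leukocytes in these counts was not tested.

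Cholesterol synthesis genes fell in 9 of 22 cases and rose in 0 (median -1.02). The count was 2 without D10 replicate 3 and 5 without control replicate 3, while the median without D10 replicate 3 was -0.94. Summed CPM of the list was 788 to 933 in control and 343, 602 and 298 at D10, with replicate 2 nearest to control. Fdft1, which makes squalene, fell by 1.08 and Srebf2, the transcription factor of the pathway, by 1.20 on the log2 scale. In the list of fatty acid and lipoprotein handling 6 of 25 rose and 6 fell (6 and 4 without D10 replicate 3). The exporters Abca1 (126, 135 and 146 to 902, 473 and 686 CPM, 2.34 ± 0.21, adjusted p = 9.45e-05) and Abcg1 (2.50 ± 0.34, adjusted p = 0.000871), which pass cholesterol out of cells, rose. Pltp, the phospholipid transfer protein, rose by 1.29 ± 0.17 (adjusted p = 0.000696), and the transporters Abca8a and Abca9 fell by 2.09 and 1.65. Glycolysis was called in 1 of 24 genes. It was Pdk1 (-0.67 ± 0.17, adjusted p = 0.0231), lost without D10 replicate 3 (0.0871) or control replicate 1 (0.0746), while 3 other genes were called higher without D10 replicate 1.

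In the secretory pathway 7 of 25 genes of the unfolded protein response and secretion rose and 0 fell (median 0.36), 2 without D10 replicate 3 and 3 without control replicate 1. Sec61b, a subunit of the channel into the endoplasmic reticulum, rose from 6.98, 7.75 and 12.2 to 20.2, 19.8 and 26.9 CPM (1.31 ± 0.25, adjusted p = 0.00492). Of 33 ribosomal protein genes 5 rose and 0 fell (median 0.35), with 1 without D10 replicate 3, control replicate 3 or control replicate 4 and 2 without D10 replicate 1 or control replicate 1. Mitochondrial messenger RNA was called in 0 of 10 genes.

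Contractile genes fell, 11 of 20 lower and 1 higher (median -1.40), against 7 and 0 without D10 replicate 3. The single rise was lost without any 1 library of either group. Acta2, the smooth muscle actin of contractile fibroblasts and vessel muscle, was at 551, 1247 and 620 CPM in control and 330, 125 and 230 CPM at D10 (-1.82 ± 0.37, adjusted p = 0.00767). The smooth muscle protein Lmod1 fell from 83.3, 169 and 98.2 to 46.4, 21.7 and 21.3 CPM (-1.97 ± 0.38, adjusted p = 0.00572). Myh11, the smooth muscle myosin, fell by 2.03 ± 0.47 (adjusted p = 0.014), was at -2.74 without D10 replicate 1 and lost its call without D10 replicate 3 (0.0586). Actg2, an actin of visceral muscle, fell by 2.79 ± 0.62 (adjusted p = 0.012), or by 3.92 without D10 replicate 3. Of 15 markers of pericytes and smooth muscle 6 were lower and 2 higher (3 and 0 without D10 replicate 3). Their summed level was 3430 to 5570 CPM in control and 3670, 2440 and 2720 CPM at D10. The 6 lower markers were Lmod1, Myh11, Myocd, Notch3, Kcnj8 and Mcam. Lmod1 and Myh11 were given above, so they are counted here again. The pericyte markers Abcc9, Ndufa4l2 and Des were not called (adjusted p = 0.163, 0.943 and 0.234). The 2 higher markers were Vtn and Anpep, called in neither case without D10 replicate 1, D10 replicate 3, control replicate 1 or control replicate 3. None of the 15 markers was at 0 counts over control and D10 together. The part of mural cells in the fall of contractile genes was not tested.

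Markers of neural and vascular cells gave a mixed picture. Over all tested genes 8.38% were called higher and 4.99% lower, so 1 call in a list of this size is not read as a change of that cell type. Of 11 markers of oligodendrocyte precursors 8 rose and 0 fell, with summed CPM of 60.0 to 95.0 in control and 210, 153 and 172 at D10. The count was 3 without D10 replicate 1 or 3 or control replicate 3, 2 without control replicate 1 and 5 without control replicate 4. Olig1, a transcription factor of that lineage, rose from 3.06, 6.09 and 5.07 to 25.3, 10.9 and 15.6 CPM (1.85 ± 0.35, adjusted p = 0.00466). Of 15 astrocyte markers 4 rose and 2 fell (4 and 1 without D10 replicate 3, and 1 lower also without D10 replicate 1 or control replicate 1 or 3). The filament Gfap rose from 6.61, 9.19 and 5.07 to 95.9, 53.0 and 65.8 CPM (3.36 ± 0.41, adjusted p = 0.000501) and the water channel Aqp4 by 3.48 ± 0.57 (adjusted p = 0.00257). Slc1a3, a glutamate transporter of astrocytes, was at 355 to 375 CPM in control and 452, 508 and 388 CPM at D10 (0.29 ± 0.15, adjusted p = 0.22). Of 17 endothelial markers 3 rose and 1 fell (2 and 1 without D10 replicate 3), among them the endomucin gene Emcn (9.68, 4.96 and 8.42 to 38.0, 24.1 and 47.1 CPM, 2.24 ± 0.31, adjusted p = 0.00101). Ngfr, the low-affinity neurotrophin receptor on the Schwann cell list, fell from 242, 674 and 546 to 127, 119 and 85.9 CPM (-2.14 ± 0.30, adjusted p = 0.00111). Of the other 13 Schwann cell markers 1, Sox10, was called, and not without D10 replicate 1 or control replicate 1 or 3. Of all 14 markers 3 were called lower without D10 replicate 2, Ngfr among them. Of 8 neuronal markers 1 rose (0 without D10 replicate 3) and 1 fell, and of 12 oligodendrocyte markers 1 rose and 1 fell. Of 6 ependymal markers 1 rose and 1 fell, namely Pltp and Rarres2, already given above with the lipid and retinoid genes. The oligodendrocyte calls were each lost without several of the libraries (1 higher and 0 lower without D10 replicate 3), and the lower ependymal call without D10 replicate 3 or control replicate 4. Of 6 erythroid markers 0 were called, and 1 without control replicate 1. Of 23 cartilage and bone genes 5 fell and 1 rose (3 and 1 without D10 replicate 3 or control replicate 4), the riser being the bone transcription factor Runx2 (1.32 ± 0.28, adjusted p = 0.00831).

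The difference between the 2 times after onset was small by number of genes. From D5 to D10, 12 genes were higher and 9 lower (0.131% of tested genes called, 0.0751% higher and 0.0563% lower), while 1353 genes had an unadjusted p under 0.05. The count depended on single libraries. Without D10 replicate 3 it was 218 (137 higher, 81 lower), and all 21 genes were among these, without D10 replicate 1 or 2 it was 3 and 6, and without D5 replicate 1, 2 or 3 it was 4, 14 and 1. DESeq2 called 182 genes and limma voom 33.

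Among the 12 genes above D5 were 2 genes of lipid handling and Igf2. Igf2 was at 1000, 997 and 1075 CPM at D5 and 4548, 2593 and 3542 CPM at D10 (1.80 ± 0.20, adjusted p = 0.00654), a call lost without D5 replicate 3 (0.0716). Lipoprotein lipase (Lpl), which releases fatty acids from lipoproteins, was at 48.2, 40.1 and 44.1 CPM at D5 and 143, 141 and 148 CPM at D10 (1.71 ± 0.16, adjusted p = 0.00256), with controls of 94.2, 136 and 95.4 CPM. It was called without each of the D5 and D10 libraries in turn. Apoe, the apolipoprotein of the brain, was higher by 1.40 ± 0.19 (adjusted p = 0.017), at 3904, 2609 and 2904 CPM against 992 to 1316 CPM at D5. The Apoe call was lost without D10 replicate 1 (0.0806) or D5 replicate 1 (0.076), 2 (0.0509) or 3 (0.114). Col2a1, the collagen of cartilage, was at 16.0, 6.44 and 6.98 CPM at D5, 45.1, 76.8 and 100 CPM at D10 and 88.2 to 140 CPM in control (2.91 ± 0.36 against D5, adjusted p = 0.0159, lost without D5 replicate 3, 0.108). Vat1l (2.53 ± 0.34, adjusted p = 0.017) and the adhesion protein Ntm (1.99 ± 0.28, adjusted p = 0.0195) were higher than at D5 as well, and against control they were at -0.58 (adjusted p = 0.231) and 0.26 (adjusted p = 0.583). Vat1l lost its call without D10 replicate 1 or 2 or D5 replicate 2 or 3 (0.0526 to 0.113) and Ntm without D10 replicate 1 or 2 or D5 replicate 1 or 3 (0.0624 to 0.114). The others were Vtn, Col4a5, Edn3, Odz4, Emid2 and A430110N23Rik, each of which lost its call without any 1 of D10 replicate 1, D5 replicate 1 and D5 replicate 3 (0.0668 to 0.214).

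Below D5 were Car4, Serpina3g, Abcc9, Itga1, Kcnj8, Ndufa4l2, Fn1, Des and Cd248. Car4, a membrane carbonic anhydrase, was at 18.6, 16.1 and 16.3 CPM at D5 and 1.90, 2.02 and 2.70 CPM at D10 (-2.94 ± 0.40, adjusted p = 0.017). The serpin Serpina3g was at 106, 116 and 149 CPM at D5, 14.2, 22.4 and 46.5 CPM at D10 and at most 2.2 CPM in control (-2.16 ± 0.35 against D5, adjusted p = 0.0332). Itga1, a collagen-binding integrin chain, was at 261, 372 and 394 CPM at D5 and 107, 96.0 and 157 CPM at D10 (-1.51 ± 0.24, adjusted p = 0.0314). The paired subunits of a potassium channel of pericytes, Abcc9 (-1.62 ± 0.27, adjusted p = 0.0443) and Kcnj8 (-1.50 ± 0.22, adjusted p = 0.0233), were both lower, as were the pericyte list members Ndufa4l2 and Des. Of the 15 pericyte and smooth muscle markers these 4 were lower than at D5, 1 was higher (Vtn) and 10 were not called. Fn1 was at 3025, 3151 and 3363 CPM at D5 (-1.16 ± 0.19, adjusted p = 0.0361). The calls of all 9 genes were each lost without any 1 of D10 replicates 1 and 2 and D5 replicates 1 to 3, with adjusted p from 0.0509 to 0.212. Mki67 (-1.14 ± 0.31, adjusted p = 0.258) was below D5 in value and not called, and without D10 replicate 3 it was called (0.0318).

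**Figure D5:**
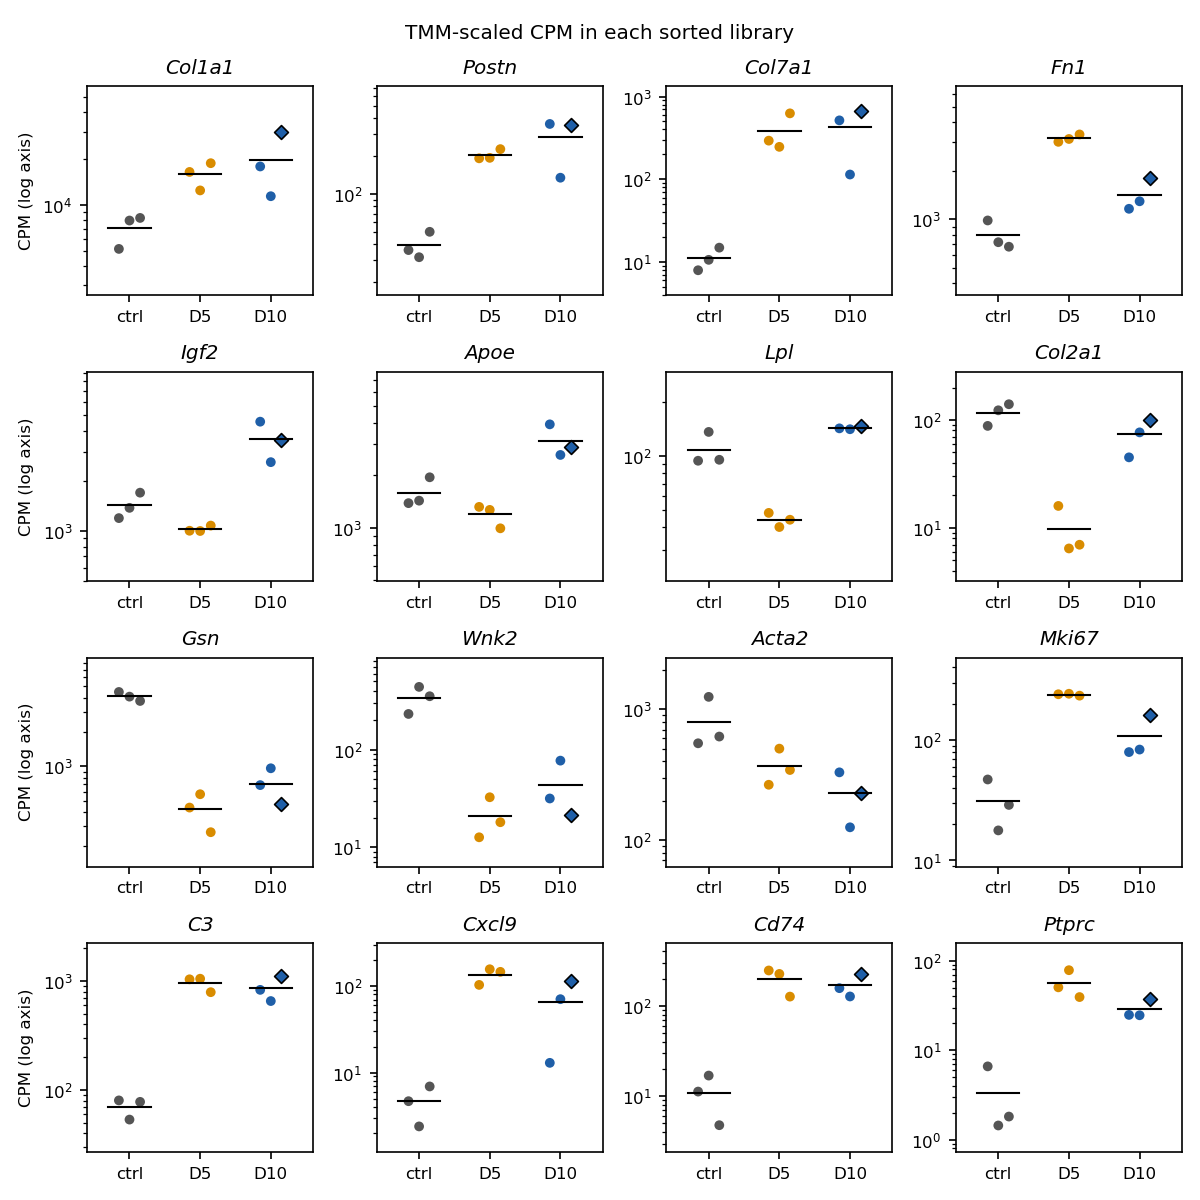
TMM-scaled CPM of 16 genes on log axes in control (grey), D5 (orange) and D10 (blue) libraries, with D10 replicate 3 as a diamond and the group mean as a line. Igf2, Apoe and Lpl lie above D5 in all D10 libraries, Fn1 lies below, and D10 replicate 3 is the highest D10 library for Col1a1, Mki67, C3 and Cxcl9.

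Within the D10 group, replicate 3 differed from both others by a fold of at least 2 more often than they did. Of 9308 genes with a D10 mean of at least 10 CPM, 65 were that far above and 139 that far below in replicate 3. The counts were 18 and 52 in replicate 1 and 65 and 55 in replicate 2. The following genes had the largest gaps between replicate 3 and the nearer other D10 library, among genes of at least 10 CPM in a D10 library. They were chosen by these same values and are given with no test. The largest gaps upward were in Bglap2, an osteocalcin gene of bone (0.669, 2.41 and 28.8 CPM in replicates 1, 2 and 3), the acute phase gene Saa3 (7.25, 8.76 and 57.1 CPM) and the plasminogen activator inhibitor Serpinb2 (0, 1.92 and 13.3 CPM). Car3 and the fibrinogen chain Fgb followed. The largest gaps downward included the immediate-early gene Fosb (3062, 4204 and 754 CPM), the immunoglobulin segment Igkv1-110 (26.5, 3.75 and 0.235 CPM), Ppm1n and Trim72. Fosb ranged from 1423 to 4151 CPM in control, so that D10 replicate 3 was below all controls and both other D10 libraries above the lowest of them.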

How the data were processed

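The values were whole-number read counts per gene, which the authors deposited as 1 table of 37991 genes and a line of column totals. That line was dropped, since it equalled the column sums. Another 15 value columns (CPM and means) were not used. Per the submitters' processing notes, the tools named were TopHat2 2.0.11, Bowtie2 2.2.1, SAMtools 0.1.19 and HTSeq 0.6.1 with the mm9 build, and DESeq2. For the annotation and the use of strand, the sources used here state nothing. Reads were paired, 100 bases long, from a HiSeq4000. Genes were named from the table's own symbols, of which 24 turned into dates by a spreadsheet were restored. Beyond the first row of each symbol, 3401 rows repeated a symbol.

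The 9 sorted libraries were fitted together in edgeR 4.0.16 (R 4.3.3). Genes were kept by filterByExpr on the groups, libraries were scaled by TMM, and the quasi-likelihood test was adjusted over 15972 genes by the Benjamini-Hochberg method. Groups came from the labels. CPM values of single genes use TMM-scaled library sizes, while summed CPM of a list use the unscaled total counts of the library. A standard error is the log2 fold change divided by the square root of its F statistic. A fold against a group with 0 counts is a lower bound against 3 counts over that group. Ratios with 1 to 3 counts carry a 95% exact counting interval. Both cover counting error only, since reads without molecular identifiers are not independent molecules. Library depths of 7123291 to 10491064 counts set these limits.

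The members of 45 gene lists and the libraries were chosen with earlier results of these data known. Genes were named by rule: the 8 called genes of largest change in each direction against control and the 5 against D5 (at least 10 CPM in the higher group, no overlap between groups), up to 2 called genes of each list with the largest change (at least 5 CPM), 12 genes fixed by name, the highest marker of each other cell type, and the 5 genes of largest gap between D10 replicate 3 and the nearer of the other D10 libraries in each direction, 133 in all. Other called list members were named after their values were seen. Alternatives were DESeq2 1.42.0, limma 3.58.1 voom, and size factors by relative log expression or upper quartile. Others were no filter, at least 1 CPM in 3 libraries, a fit of the 6 libraries compared and a replicate block. Each library of the 2 groups compared was also left out in turn. The fit was tested on simulated data with 99 genes changed 2-fold, 98 changed 4-fold, and all D10 libraries drawn from the same mean. Of these genes 34.3% and 73.5% were called, with 8 false calls among 15368 unchanged genes. In the data more genes were called and D10 replicate 3 stood apart, so these shares need not hold there. Promoters were read from RefSeq (GRCm38.p6) by gene, 300 bases each.
Some genes are not reported here.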

Additional observations from a re-analysis of the deposited data

Results flagged for a closer look

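The difference between D10 and D5 was itself tested, and it was called for 12 genes higher and 9 genes lower at D10. The 5 largest rises were Col2a1 (log2 2.91), Vat1l (2.53), Ntm (1.99), Igf2 (1.80) and Lpl (1.71). The 5 largest falls were Car4 (-2.94), Serpina3g (-2.16), Abcc9 (-1.62), Itga1 (-1.51) and Kcnj8 (-1.50). Of these 10, Lpl was the gene whose call survived the removal of each of the D5 and D10 libraries in turn.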

How the results depend on the processing

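The total of genes called between D10 and control stayed within 1.5 times of 2136 under every alternative except the removal of D10 replicate 3. That removal gave 1045 genes (680 higher, 365 lower). Over all single control or D10 libraries left out the totals ran from 1045 to 2031, the higher genes from 680 to 1283 and the lower from 365 to 748. Without control replicate 4 the lower genes numbered 522. In a fit of only the 6 libraries compared, 797 genes were higher. The share of higher genes among those called was 62.7% and ran from 53.7% in that fit to 65.1%. For D10 against D5 the count of 21 (12 higher, 9 lower) depended on the choices more strongly, with 182 (107 higher, 75 lower) by DESeq2, 265 (171 higher, 94 lower) with no filter, 3 (2 higher, 1 lower) in the fit of 6 libraries, and 18 lower by limma voom, which put 45.5% of its 33 calls higher against 57.1%. With a single D5 or D10 library left out it ran from 1 to 218, the higher genes from 1 to 137 and the lower from 0 to 81. The causes were not tested. No alternative reversed a named gene that was called. Of 133 named genes against control, 26 lost their call without D10 replicate 3, 21 without control replicate 4 and 20 with limma voom, and the other scalings and the filter of at least 1 CPM moved none across the threshold.

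The replicate numbers were not taken to pair the samples. Deviations from the group means of same-numbered libraries correlated at -0.0387 and 0.171 between control and D10, and at -0.0779, -0.057 and 0.0587 between D5 and D10. With the replicate number as a block, 1626 genes (974 higher, 652 lower) were called against control and 23 (15 higher, 8 lower) against D5. In simulated data 34.3% of 99 genes changed 2-fold and 73.5% of 98 genes changed 4-fold were called. All D10 libraries there had the same mean, unlike those of the data.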
